A study of Mus musculus with 6 samples.

Results

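The genes described here are 9 regulators and surface genes of the dendritic cell lineage, Irf8, Tcf4, Siglech, Bst2, Ly86, App, Zbtb46, Batf3 and Id2, chosen by symbol among the 21606 genes of the count table, where each had 1 row. They were read in marrow cells sorted as ALDHbr, that is bright for aldehyde dehydrogenase activity, a property used to collect a progenitor-rich marrow fraction. The cells came from wild-type C57BL/6 mice, a common inbred strain, with 3 libraries from females and 3 from males. Libraries were made with BRB-seq, a bulk method that barcodes each sample at reverse transcription and reads the 3' ends of transcripts. Separate animals are not named for the replicates. The p-values therefore measure no more than how these samples vary, and that spread may be technical.

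Dendritic cells take up antigen and present it to T cells. Plasmacytoid dendritic cells, which release large amounts of type I interferon, depend on the E protein TCF4, a helix-loop-helix factor. Conventional dendritic cells depend on other factors, among them ID2, which binds E proteins and keeps them from DNA, and BATF3 for the type 1 subset. IRF8 acts in both branches and in monocyte progenitors.

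Totals ran from 1199551 to 1475224 counts in the female libraries and from 679724 to 880074 in the male ones, so values rest on fewer counts in males. Values below are CPM, counts per 1e+06 counts of a library whose size was scaled by TMM (trimmed mean of M-values), and means are given ± SD over 3 libraries. Of the 9 genes, 6 passed a filter on low counts that left 8460 genes to test, and Siglech, Zbtb46 and Batf3 did not. The difference, male minus female, went through edgeR's quasi-likelihood test; p-values were adjusted by Benjamini-Hochberg over all 8460 genes and read at 0.05. Of the 6 tested members, 1 passed, App, which was lower in males, where 0.579% of all tested genes were called, 0.154% lower and 0.426% higher. Scaled by library size only, the split of all calls was 29 higher and 23 lower in place of 36 and 13. Male replicate 1 correlated more with the female libraries (mean r of log2 CPM across genes 0.965) than with the other male ones (0.956), and male replicate 3 about equally (0.961 and 0.960), so values without single libraries are given where they differ.

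Irf8 and Tcf4, the lineage-setting factors, were present in every library at levels that overlapped between the sexes. Irf8 (chromosome 8, 120736358 to 120756694, GRCm38) had 1120, 1043 and 1180 CPM in female replicates 1 to 3 and 1132, 998 and 1069 CPM in male replicates 1 to 3. The female mean was 1114 ± 68.6 (SD, n = 3) and the male mean 1066 ± 67.2 CPM. The SD was 6.15% of the mean in females and 6.30% in males, and the sexes overlapped. The log2 fold change was -0.06 ± 0.12 (SE), with a 95% interval from -0.31 to 0.19, and did not pass (adjusted p = 0.903, edgeR's quasi-likelihood test). An annotated gene, Gm20388, overlaps exons of Irf8 on the same strand and is not among the genes of the count table. Reads of the pair may be mixed, and how they were assigned was not tested.

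Tcf4 (chromosome 18, 69343356 to 69689079, GRCm38) had 172, 110 and 145 CPM in the female libraries and 142, 130 and 143 CPM in the male ones. All 3 male values lay inside the female range. Its log2 fold change was -0.03 ± 0.15, with a 95% interval from -0.33 to 0.28 (adjusted p = 0.97, edgeR's quasi-likelihood test). The sign turned without female replicate 1, the library with the highest value (0.12), and without male replicate 2 (0.012). The other E proteins, Tcf3 and Tcf12, had log2 fold changes of -0.04 ± 0.14 and 0.14 ± 0.16, and neither passed. Relative to Irf8 within a library, Tcf4 counts gave ratios from 0.106 to 0.153 in females and from 0.126 to 0.134 in males.

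Id2, the antagonist of E proteins, separated the sexes by library but did not pass the test. It lies on chromosome 12 (25093799 to 25097140, GRCm38) and gave female counts of 12, 11 and 14 and male counts of 12, 14 and 16, in spite of the lower male totals. In CPM these were 9.66, 7.45 and 10.8 in females and 14.0, 23.3 and 19.3 in males. Every male value lay above every female one; over all tested genes this held for 7.57%. The log2 fold change was 0.99 ± 0.33, with a 95% interval from 0.31 to 1.66, at an unadjusted p of 0.00616 (edgeR's quasi-likelihood test, adjusted p = 0.225), and 11.3% of all tested genes had an unadjusted p under 0.05. Over 14 alternative settings the log2 fold change stayed between 0.84 and 1.18 and the adjusted p between 0.0660 and 0.623. The relatives Id1, Id3 and Id4 had too few counts to be tested, with 36, 16 and 6 in all 6 libraries. What part RNA from lung samples sequenced in the same pool, described below, has in the low counts of Id2 was not tested.

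The balance of Tcf4 to Id2 was then read within each library, where scaling of library sizes plays no part; this ratio was chosen after the values were seen. Tcf4 counts per Id2 count were 17.8, 14.8 and 13.5 in females and 10.2, 5.57 and 7.44 in males. Summed over libraries, the ratio was 15.3 in females (95% counting interval 10.9 to 21.9) and 7.60 in males (5.49 to 10.7). Irf8 to Id2 moved in the same direction, with 116, 140 and 110 in females and 81.0, 42.9 and 55.4 in males. Since both ratios share Id2, they are not separate evidence. Neither ratio overlapped between the sexes, and the exact two-sided permutation p was 0.1, the smallest that 3 against 3 libraries allow. In CPM, Id2 had already separated the sexes while Tcf4 and Irf8 overlapped. The p of these ratios therefore adds no support beyond Id2's own values, which did not pass. A ratio within a library shows unequal change of a pair of genes and not which of them changed.

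**Figure D1:**
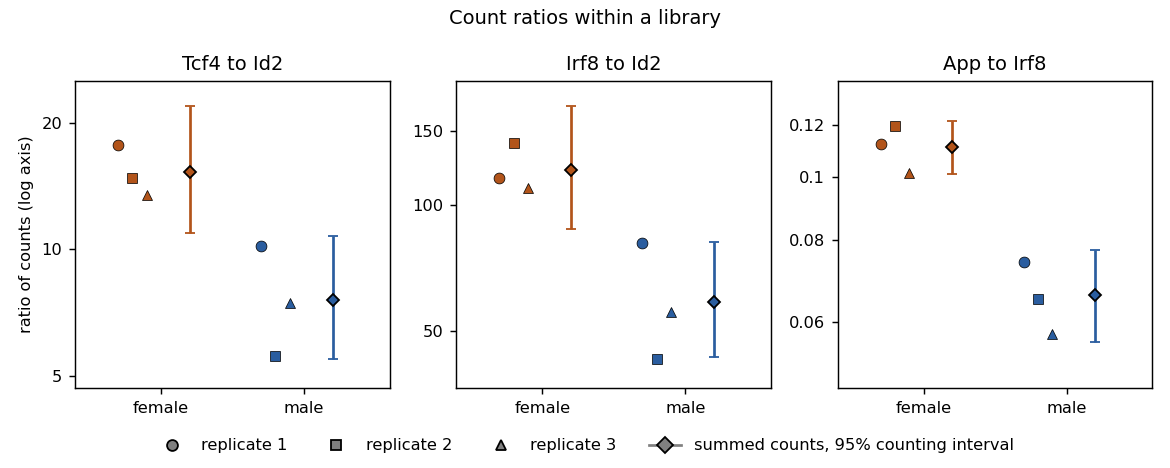
Ratios of counts within each library for Tcf4 to Id2, Irf8 to Id2 and App to Irf8 (log axis), with a symbol per replicate and a diamond for the summed counts of a sex with its 95% counting interval. All 3 male libraries lie below all 3 female ones in each panel, with Tcf4 to Id2 at 15.3 in females and 7.60 in males over summed counts. The pairs were chosen after the values were seen, and Ly86, Tcf4 and Bst2 to Irf8, which overlapped between the sexes, are not drawn.

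Bst2 and Ly86, surface and secreted products of the plasmacytoid and myeloid branches, did not differ beyond the spread between libraries. Bst2 encodes tetherin, an interferon-induced membrane protein that holds budding virus particles on the cell and marks plasmacytoid dendritic cells in unstimulated mice. It lies on chromosome 8 (71534255 to 71537456, GRCm38, reverse strand). Its counts gave 163, 182 and 174 CPM in the female libraries and 143, 229 and 190 CPM in the male ones. The male libraries lay on both sides of the female range, so that the SD was 9.06 CPM in females and 43.2 in males. The log2 fold change was 0.10 ± 0.14, with a 95% interval from -0.19 to 0.39 (adjusted p = 0.857, edgeR's quasi-likelihood test). Its sign turned when male replicate 2, the highest library, was left out (-0.055), and under scaling by library size only (-0.0012). None of 8 tested interferon-stimulated genes passed, nor did any at an unadjusted p under 0.05, and their median log2 fold change was -0.06 beside -0.003 over all tested genes. Psmb8 and Psmb9, subunits of the immunoproteasome, had log2 fold changes of 0.06 ± 0.13 and -0.15 ± 0.13.

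The stretches upstream of Bst2, Siglech and App, from RefSeq on GRCm38.p6, are shown for the motifs that the lineage factors are known to read. They are written 5' to 3' on the gene's strand and leave out bases that GENCODE M21 annotates as exon. Capitals mark matches to the core of the interferon-stimulated response element, which is GAAA, any 2 bases and GAAA again, and to CAGGTG, an E-box that E proteins bind, on either strand.
Bst2 (chr8:71537473-71537722, reverse strand): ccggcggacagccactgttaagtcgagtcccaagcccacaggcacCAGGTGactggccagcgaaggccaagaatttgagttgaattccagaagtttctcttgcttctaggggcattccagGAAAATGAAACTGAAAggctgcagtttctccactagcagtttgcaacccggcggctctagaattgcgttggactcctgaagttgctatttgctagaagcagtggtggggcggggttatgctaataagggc
Siglech (chr7:55767934-55768177, forward strand): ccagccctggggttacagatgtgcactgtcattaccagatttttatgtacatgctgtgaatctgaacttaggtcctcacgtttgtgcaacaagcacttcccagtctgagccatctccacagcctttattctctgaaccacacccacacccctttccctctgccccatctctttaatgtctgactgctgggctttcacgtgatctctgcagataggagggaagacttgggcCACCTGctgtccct
App (chr16:85173767-85173957, reverse strand): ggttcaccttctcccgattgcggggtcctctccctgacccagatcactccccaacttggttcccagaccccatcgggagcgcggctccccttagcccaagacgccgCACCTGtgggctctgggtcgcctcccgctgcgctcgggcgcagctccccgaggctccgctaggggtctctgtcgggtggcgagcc
Bst2 held a pair of overlapping matches to this core, which began 130 and 124 bases upstream of the start site. Among all 32851 promoters of 300 bases in the table (250 before to 50 after the start), 3.44% held this motif, and among the 9 promoters listed for 8 of the members Bst2 was the only gene with it. CAGGTG occurred in 5 of these 9 promoters and in 20.2% of all promoters. It began 205 bases upstream in Bst2, 20 in Siglech and 144 in App. The other promoters with it were those of Zbtb46 and of the downstream start of Irf8. The ETS-IRF composite element (GGAA, any 2 bases, GAAA) and the AP-1-IRF composite element (TGANTCA, any 4 bases, GAAA) were in 0 of the 9 and in 2.72% and 0.119% of all promoters, and TGANTCA, the AP-1 site, was in 1, Zbtb46, and in 7.81% of all. The last motif is contained in the AP-1-IRF composite. Such matches describe letters in these windows and do not show binding.

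Ly86 encodes MD-1, a secreted protein that pairs with the Toll-like receptor relative CD180. The gene (chromosome 13, 37345208 to 37419036, GRCm38) had 383, 312 and 334 CPM in the female libraries and 320, 401 and 427 CPM in the male ones. Male replicate 1 lay within the female range and the other 2 male libraries above it. Its log2 fold change was 0.16 ± 0.13, with a 95% interval from -0.11 to 0.43 (adjusted p = 0.714, edgeR's quasi-likelihood test). All 14 alternatives gave a value above 0, from 0.05 to 0.28, and none passed. Cd180, the partner of MD-1, averaged 43.5 ± 7.94 female and 41.0 ± 6.91 male CPM (n = 3 each) and did not pass, with a log2 fold change of -0.07 ± 0.20. Tlr2 and Cd14, sensors of bacterial products, had log2 fold changes of -0.28 ± 0.28 and -0.53 ± 0.35, and none of the 3 tested genes of this group passed.

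App was the member that passed. It encodes the amyloid precursor protein, a membrane protein best known from the nervous system, and lies on chromosome 16 (84949685 to 85173766, GRCm38, reverse strand). It gave female counts of 156, 184 and 155 and male counts of 72, 39 and 51 (replicates 1 to 3). In CPM these were 126, 125 and 119 in females and 83.9, 64.9 and 61.5 in males, with means of 123 ± 3.41 and 70.1 ± 12.1 (SD, n = 3 each). All 3 male libraries lay below all 3 female ones, as in 8.03% of all tested genes, and male replicate 1 was the nearest to the females. App fell by 0.80 on the log2 scale (SE 0.15; 95% interval -1.11 to -0.50), which makes it 1.74-fold higher in females (edgeR's quasi-likelihood test, adjusted p = 0.00434). Without male replicate 1 it was -0.97 (adjusted p = 2.91e-04, same test). The call was lost without male replicate 3 (log2 fold change -0.70, adjusted p = 0.116) and held in the other 13 alternatives, from 8.94e-05 with no filter to 0.0359 without female replicate 2. In counts per Irf8 count, App had 0.112, 0.119 and 0.101 in females and 0.0741, 0.0650 and 0.0575 in males. The exact two-sided permutation p was 0.1, the smallest possible. This ratio was chosen after the values were seen, with App already apart between the sexes, so its p adds no support. Ly86, Tcf4 and Bst2 per Irf8 count gave 0.4, 0.7 and 0.6 by the same test. Antisense genes Gm10791 and Gm49227 overlap exons of App, and Gm49226, which overlaps it outside its exons, had 4 counts in all libraries.

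Genes of the amyloid precursor family and of its processing were read beside App. Of 17 such genes 11 were tested, and 1 fell, where 0.154% of all tested genes were called lower. It was Cd74, the invariant chain of MHC class II, which binds the precursor. None rose, and 10 did not pass. The count was 0 without female replicate 2 or male replicate 3, and 2 without female replicate 1 or male replicate 1, with the replicate block, with library-size scaling and with no filter. Their median log2 fold change was -0.29, with 8 of 11 below 0, where 50.7% of all tested genes lay below 0. Itm2b, an inhibitor of precursor cleavage, had a log2 fold change of 0.0005 ± 0.12, and Adam10, the alpha-secretase, one of 0.06 ± 0.13. Apbb1ip, an adaptor of integrin signalling, had 175 ± 30.8 CPM in females and 114 ± 23.0 in males, a log2 fold change of -0.60 ± 0.15 (adjusted p = 0.0742, edgeR's quasi-likelihood test). Among genes outside the 9, those with the pattern closest to App over the 6 libraries were Ece1, Exog and Usb1, at root mean square distances of 0.0818, 0.0912 and 0.0929 in centred log2 CPM, where the median over 8454 genes was 0.469; none of the 3 passed the test. For Irf8 the closest were Cpsf3, Tgfbi and Arl6ip1, at 0.0235, 0.0251 and 0.0253, beside a median of 0.234.

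The summed levels of several marker lists of other cells lay apart between the sexes. Among single tested genes, all male libraries lay below all female ones in 8.03% and above them in 7.57%. No such share was taken for sums. The 8 mature B cell markers summed to 92.6 to 103 CPM in females and 61.5 to 75.7 in males. Most of that sum was Cd79b, with 386 counts in all 6 libraries. Only 2 of the 8 markers were tested, Cd79b, which was not called, and Ms4a1, which was. Ms4a1, with 56 female and 6 male counts, passed the filter through the female libraries alone, so its call is not read as support. The 9 erythroid and megakaryocyte markers summed to 113 to 135 CPM in females and 314 to 471 in males. The 3 tested genes of that list, Car1, Car2 and Pf4, were called higher in males, as were 0.426% of all tested genes. The call of Pf4 was lost without male replicate 3 (edgeR's quasi-likelihood test, adjusted p = 0.0576). The 7 early lymphoid markers summed to 59.6 to 78.6 and 106 to 175 CPM, and the 1 tested gene, Dntt, which encodes a polymerase of antigen receptor assembly, was called higher in males. The 12 neutrophil markers summed to 14327 to 15057 and 12767 to 13743 CPM, with no gene called. Nearly all of that sum was Mpo, Prtn3, Elane and Ctsg, with 45235, 18378, 14707 and 10591 counts in all 6 libraries. The rest had from 1 count (Ltf) to 90 (Cebpe). The 8 T and natural killer cell markers summed to 129 to 145 and 154 to 170 CPM, with no gene called and Cd3e, Gzma and Ncr1 at 0 counts. Nearly all of that sum was Nkg7, with 905 counts, where Cd3d, Cd3g, Trac and Klrb1c had 1, 6, 2 and 1. The 7 plasma cell markers overlapped, at 974 to 1004 and 801 to 1046 CPM, and none of 4 tested passed. In these lists no other marker was at 0 counts. Their part in the level of App was not tested. In bulk RNA, fewer cells of a type and less RNA per cell cannot be told apart.

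**Figure D2:**
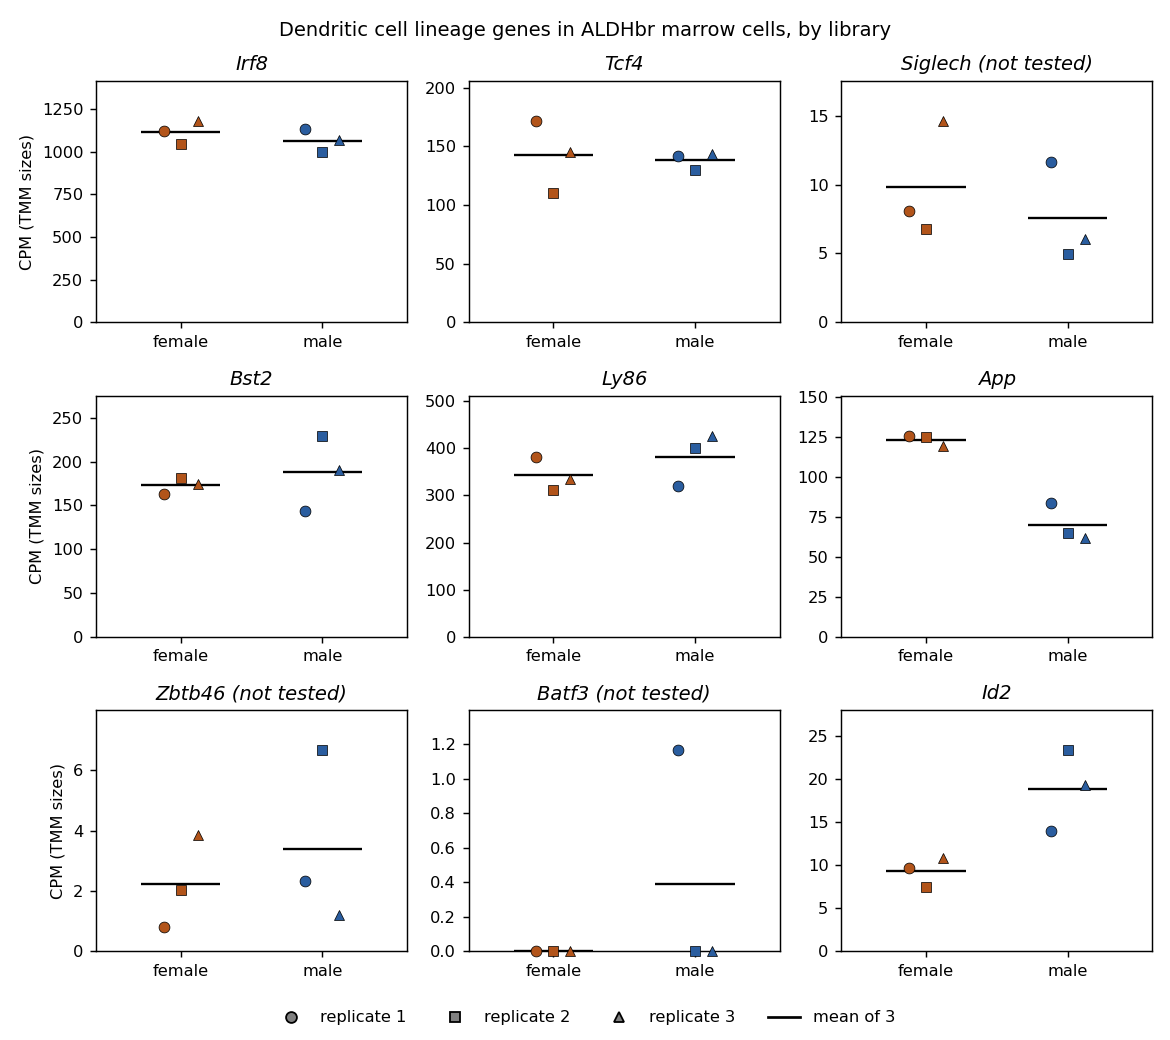
CPM of each of the 9 genes in each library, on linear axes from 0, with females at left and males at right, a symbol per replicate and a line at the mean of 3. App has 3 male libraries at 61.5 to 83.9 CPM, below the female 119 to 126, and Id2 has its 3 male libraries above the female ones, while the other 7 overlap.

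Siglech, Zbtb46 and Batf3 had too few counts to be tested. Siglech, a lectin of plasmacytoid dendritic cells (chromosome 7, 55768178 to 55778925, GRCm38), gave female counts of 10, 10 and 19 and male counts of 10, 3 and 5 (replicates 1 to 3). In CPM these were 8.05, 6.77 and 14.6 in females and 11.6, 4.99 and 6.02 in males, and the sexes overlapped. Summed counts per library size were 0.81 times as high in males (95% counting interval 0.436 to 1.45). Zbtb46, a zinc finger factor of conventional dendritic cells (chromosome 2, 181387762 to 181459426), had 1, 3 and 5 female and 2, 4 and 1 male counts. Per library size the summed counts were 1.36 times as high in males (95% counting interval 0.432 to 4.12). These counts leave room for a change of either direction. Batf3, the factor of type 1 conventional dendritic cells (chromosome 1, 191097847 to 191108945), had 0 counts in females and 1 in males, in male replicate 1. A count of 0 over the female libraries allows up to 0.747 CPM, so no comparison could be made. With no filter, none of the 3 passed (edgeR's quasi-likelihood test, adjusted p = 0.761, 0.855 and 0.761 for Siglech, Zbtb46 and Batf3).

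The other markers of mature dendritic cells ranged from absent to testable. Among the scarcest, picked after their values were seen, over all 3 libraries of a sex, Ccr9, a homing receptor of plasmacytoid dendritic cells, had 4 counts in females and 4 in males, Pacsin1 had 1 and 6, and Klk1 had 0 and 1. Xcr1, the chemokine receptor of type 1 conventional dendritic cells, had 5 and 5, and Itgax, the integrin CD11c, had 16 and 15. Cd300c and Cd209a had 38 and 41 counts in all and were not tested. Ly6d, Cox6a2 and the type 1 marker Clec9a, with 139, 67 and 59 counts, were tested and did not pass, at log2 fold changes of 0.70 ± 0.28, 0.33 ± 0.36 and -0.72 ± 0.45. The 9 plasmacytoid markers together, which include Siglech, Bst2 and Tcf4, summed to 331 to 382 CPM in females and 346 to 424 in males. Most of this plasmacytoid sum was Bst2 and Tcf4, with 1116 and 884 counts in all 6 libraries, where Siglech had 57. The 7 conventional markers, which include Zbtb46 and Batf3, summed to 96.2 to 103 CPM in females and 108 to 136 in males. Most of that sum was Flt3, the cytokine receptor of dendritic and earlier progenitors, with 75.5 ± 3.69 CPM in females and 97.9 ± 6.83 in males (log2 fold change 0.37 ± 0.14, adjusted p = 0.277, edgeR's quasi-likelihood test). By contrast, monocyte and macrophage markers summed to 4178 to 4605 and 4017 to 4451 CPM and stem and multipotent markers to 475 to 535 and 504 to 540 CPM. These 6 samples were sequenced in 1 pool with 10 barcoded lung samples, which are not analysed here. Sftpc, a gene of lung epithelium, gave female counts of 110, 108 and 68 and male counts of 88, 133 and 80 (replicates 1 to 3). Set against the smaller male library sizes, Sftpc was higher in every male library than in every female one, as Id2 was. What part RNA from the lung samples has in low counts such as those of Id2, Siglech and Zbtb46 was not tested.

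**Figure D3:**
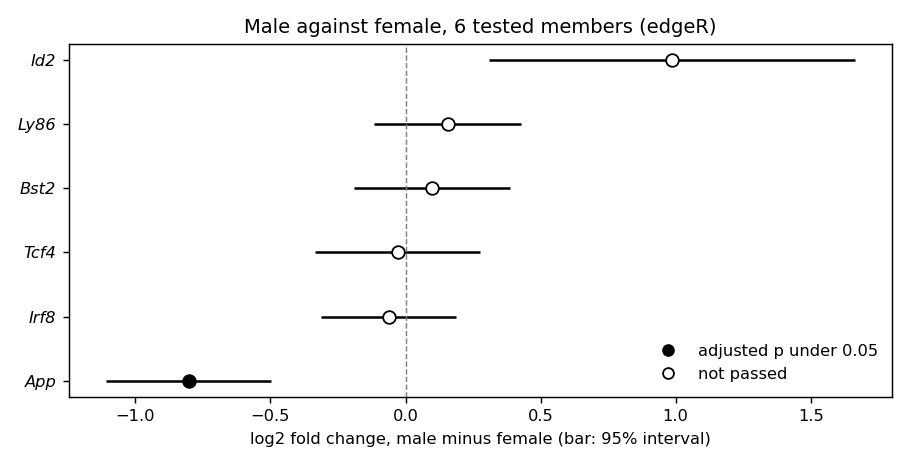
Log2 fold changes, male minus female, of the 6 tested members with their 95% intervals from edgeR's quasi-likelihood fit. App, at -0.80, is filled because its adjusted p was under 0.05, Id2 lies at 0.99 with the widest interval, and the other 4 intervals include 0.

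The wider dendritic programme was read from lists of other genes. Of 16 tested transcription factors of dendritic development outside the 9 genes, none passed. Their median log2 fold change was -0.06, and 12 lay below 0, where 50.7% of all tested genes did. At an unadjusted p under 0.05 there were 2 of the 16, beside 11.3% of all tested genes. Spi1, which encodes the myeloid factor PU.1, a partner of IRF8 on DNA, averaged 320 ± 8.44 female and 305 ± 35.8 male CPM (n = 3 each), with a log2 fold change of -0.06 ± 0.12. Zeb2, a repressor that acts upstream of Id2 in dendritic precursors, had 284 ± 10.7 and 213 ± 43.4 CPM. All its male libraries lay below the female ones, as in 8.03% of all tested genes. Its log2 fold change was -0.40 ± 0.14 and did not pass (adjusted p = 0.234, edgeR's quasi-likelihood test). Klf4, a factor of monocytes and of a subset of conventional dendritic cells, had -0.07 ± 0.14. Without male replicate 1, 2 of the list passed, in a setting that called 337 genes higher and 78 lower of 8989 tested. The other interferon regulatory factors gave 0 of 5 tested, also at an unadjusted p under 0.05, with log2 fold changes of -0.05 ± 0.16 for Irf3, -0.02 ± 0.16 for Irf2 and 0.01 ± 0.19 for Irf5.

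Of 15 tested genes of plasmacytoid dendritic cells outside the members, none passed, with 3 at an unadjusted p under 0.05 and a median log2 fold change of 0.04. Over all tested genes, 11.3% had an unadjusted p under 0.05, the share to set beside each list here. Plac8 and Ly6c2, which progenitors and monocytes also express, had log2 fold changes of 0.26 ± 0.14 and 0.04 ± 0.13. Without male replicate 1, with its larger number of calls over all genes, 1 of this list passed. Of 5 tested genes of type 1 conventional dendritic cells none passed, with 1 at an unadjusted p under 0.05, and Cd24a, a surface marker of that subset, had 0.39 ± 0.12, while Ppt1, a lysosomal thioesterase, and Wdfy4, needed for cross-presentation, had 0.02 ± 0.17 and -0.11 ± 0.17. The 5 tested genes of type 2 conventional dendritic cells gave no call and 1 at an unadjusted p under 0.05; Clec12a, Sirpa and Clec10a, receptors on their surface, had 0.12 ± 0.12, -0.13 ± 0.13 and -0.28 ± 0.31.

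Of 13 tested pan-dendritic and precursor genes, 3 fell, Cd74, H2-Aa and H2-Eb1, none rose and 10 did not pass. Over all tested genes, 0.154% were called lower. The list count ran from 0 to 4 over 14 alternative settings. At an unadjusted p under 0.05 there were 7 of the 13, beside 11.3% of all tested genes. Of the 7, Flt3 and Lgals3 were higher in males, at log2 fold changes of 0.37 ± 0.14 and 0.36 ± 0.13. Csf2rb and H2-Ab1 were lower, at -0.57 ± 0.14 and -0.57 ± 0.22, and did not pass (edgeR's quasi-likelihood test, adjusted p = 0.0572 and 0.298). The 3 called genes belong to MHC class II presentation, which B cells share with dendritic cells. Cd74 fell by 0.99 (SE 0.18), H2-Aa by 1.36 (SE 0.28) and H2-Eb1 by 1.37 (SE 0.31) on the log2 scale. None of the 3 calls held without male replicate 3 or without female replicate 2 (edgeR's quasi-likelihood test, adjusted p = 0.102, 0.0923 and 0.21, and 0.0544, 0.155 and 0.237), and H2-Eb1 was also lost without female replicate 3 (0.0883) and male replicate 2 (0.122). Cd74 was the one of the 3 that also passed by DESeq2 and limma-voom. Cst3, cystatin C, Ccr2, a chemokine receptor of monocytes and precursors, and Csf1r, the receptor of macrophage colony-stimulating factor, did not pass, at log2 fold changes of 0.23 ± 0.14, -0.11 ± 0.12 and -0.15 ± 0.13. Over the whole list the median was -0.22.

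The remaining groups stood close to single members. Batf, the relative of Batf3, had 19.6 ± 4.50 CPM in females and 20.7 ± 6.32 in males, a log2 fold change of 0.08 ± 0.29 (n = 3 each). Of its partners in the Jun family, Junb rose by 0.77 ± 0.13 (adjusted p = 0.0018, edgeR's quasi-likelihood test), and Jun and Jund had 0.32 ± 0.14 and 0.41 ± 0.14 and did not pass. Junb was the 1 call among 4 tested genes of that list, where 0.426% of all tested genes were called higher. All 4 lay above 0, as did 4175 of all 8460 tested genes. Without male replicate 2 the list count was 2. Tyrobp, the adaptor DAP12 through which Siglec-H signals, had 509 ± 42.1 CPM in females and 697 ± 188 in males, a log2 fold change of 0.45 ± 0.15 (adjusted p = 0.237, edgeR's quasi-likelihood test). Hcst, a related adaptor, and Siglecg, a Siglec of B cells, had 0.23 ± 0.29 and -0.53 ± 0.39, and none of the 3 tested genes of this group passed; without male replicate 1, which gave 337 and 78 calls over 8989 genes, 1 of them did.

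**Figure D4:**
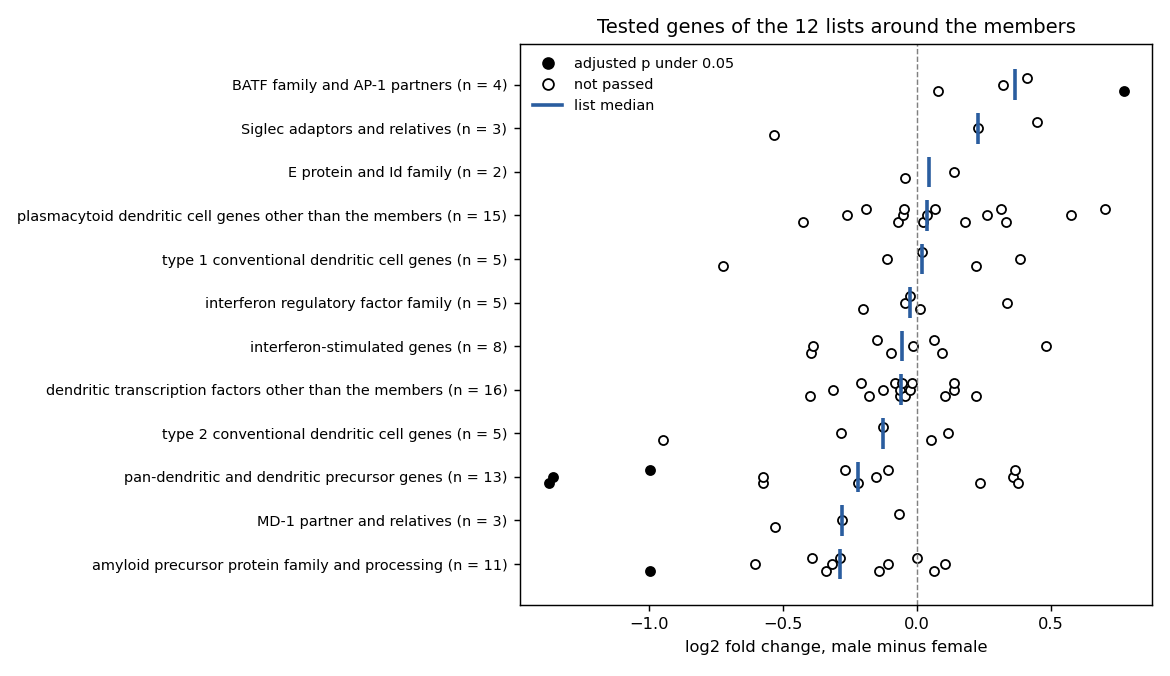
Log2 fold changes, male minus female, of the tested genes of 12 lists around the members, with a bar at each list's median; filled points had an adjusted p under 0.05. The filled points are Cd74 (in both lists that hold it), H2-Aa and H2-Eb1 below 0 and Junb above 0; the list medians run from -0.29 to 0.37.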

How the data were processed

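RNA was measured in 6 libraries, 3 per sex, grouped by the sex and number in the sample titles. The authors deposited 1 table of unnormalised gene counts, all whole numbers. Per the labels' protocols, libraries were BRB-seq, with a molecular identifier and barcode in read 1. Of tools, HISAT2 2.2.1, featureCounts 2.0.1, UMI-tools, DESeq2 and Trim Galore 0.6.7 are named in the submitters' processing notes, and of builds GRCm38 and GRCh38. The collapse of molecular identifiers and the use of strand are not given in the sources used here; PCR copies may therefore be counted.

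All 21606 identifiers matched GENCODE M21 (GRCm38), which gave coordinates. Genes were kept by filterByExpr (minimum count 10, minimum total 15), scaled by TMM and tested with edgeR 4.0.16 (R 4.3.3; quasi-likelihood F test, no covariate). Standard errors were taken as the absolute log2 fold change over the square root of F. Intervals of counts are exact 95% binomial intervals, and they and the floor of 3 counts cover counting error only. Ratios within libraries were tested by exact permutation. Within each sex, libraries differed by more than counting error (chi-square per degree of freedom 2.15 to 4.62). The steps were tested on simulated data. Tried as alternatives were other scalings (library size, RLE, upper quartile), no filter, a filter of 10 counts in all libraries of 1 sex, limma-voom (limma 3.58.1), DESeq2 1.42.0, a replicate block and leaving out each library.

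The members, the 12 lists and the 10 marker lists were chosen with earlier results of these data known. Named genes were all members and, from each list, the genes past the threshold and the 3 with the highest mean CPM, and for App and Irf8 the 3 closest patterns; some genes that the rule names are not reported here. Id3, Id4, Batf, Flt3 and the dendritic and other cell type markers were named after their values were seen.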

Additional observations from a re-analysis of the deposited data

How the results depend on the processing

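App kept its direction in 14 of 14 alternatives. Leaving out single libraries gave log2 fold changes from -0.97 to -0.70, and without male replicate 3 (-0.70) it did not pass, which left 0 members called; elsewhere 1 was called. Without single libraries the genes called over the whole table ran from 19 to 337 higher and from 4 to 78 lower in males, with the extremes without male replicates 3 and 1. With no filter 81 were higher and 35 lower; with library-size scaling 23 were lower, by DESeq2 7 and by limma-voom 8. Bst2 reversed without male replicate 2 (-0.055; range without single libraries -0.055 to 0.27) and under library-size scaling (-0.0012), and Tcf4 without female replicate 1 (0.12) and without male replicate 2 (0.012; range -0.19 to 0.12); the cause was not tested. Irf8, Ly86 and Id2 kept their sign and did not pass under any of 14 alternatives. With the replicate number as a block, 56 genes were higher and 22 lower, and App had -0.81. Same-numbered libraries had correlations of deviations of 0.0297, 0.0343 and 0.048, under the 0.1 asked of a pairing, although each library correlated best with its own number. Library-size scaling moved the median of all genes to -0.09. The ratios in males over females of Siglech and Zbtb46 were 0.762 and 1.28 per raw total. Depth limits Siglech, Zbtb46, Batf3 and Id2, with 57, 16, 1 and 79 counts in all.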

Other observations

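The following genes of the dendritic and interferon-stimulated lists lay below the filter on low counts and were named after their values were seen. Ltb, the gene of lymphotoxin beta, a cytokine of lymphocytes that supports type 2 conventional dendritic cells in the spleen, gave female counts of 5, 21 and 10 and male counts of 2, 1 and 1, 0.195 times as much in males per library size (95% counting interval 0.0504 to 0.544). Female replicate 2 held 21 of the 36 female counts. Spib, an ETS factor of plasmacytoid dendritic and B cells, had 3, 9 and 9 counts in females and 1, 1 and 3 in males, a ratio of 0.418 whose counting interval (0.123 to 1.14) includes 1. Pacsin1, of the plasmacytoid list, went the other way, with 1, 0 and 0 counts in females and 4, 1 and 1 in males. Its ratio was 10.5 (1.28 to 484), on 7 counts in all. Isg20, an interferon-stimulated exonuclease, had 6, 8 and 7 counts in females and 8, 8 and 7 in males, a ratio of 1.92 (1.02 to 3.65), and of 1.81 per raw total, where the interval (0.957 to 3.44) includes 1. Oas1a, of the same list, went the other way, with 5, 1 and 4 counts in females and 0, 0 and 0 in males (interval of the ratio 0 to 0.783). The intervals of the other untested genes of that list included 1.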
